A study of Mus musculus with 34 samples.

Results

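Of the 16389 genes in the deposited table, 10 form the group described here: the cathepsins *Ctsa*, *Ctsb*, *Ctsc*, *Ctsd*, *Ctsh*, *Ctsl*, *Ctss* and *Ctsz*, and the lysosomal membrane genes *Lamp1* and *Cd68*. They were picked by gene symbol, with earlier results of these data known. All 10 were present, and all 10 passed the filter on low values (an FPKM of at least 1 in at least 3 libraries; FPKM is fragments scaled to transcript length and library size) and were among the 14710 genes tested.

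Cathepsins are proteases of the lysosome, made as inactive precursors, carried there mostly by mannose 6-phosphate receptors and switched on in its acid interior. In the brain several of them are found in many cell types, and microglia and macrophages, which digest what they engulf, are particularly rich in some. LAMP1 is a heavily glycosylated protein that coats the inner face of the lysosomal membrane, and CD68, its relative in macrophages and microglia, is widely used to stain phagocytic cells.

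The 34 libraries came from 3 brain regions of 12 C57BL/6 mice: cortex, hippocampus, and a dissection of thalamus together with striatum that is called the thalamus here. WT CON mice had no irradiation, no transplant and no inhibitor, and are labelled as vehicle. GFP-BM CON mice had whole-body irradiation at 1000 cGy and then marrow from CAG-EGFP donors, in which the broadly active CAG promoter drives GFP, but no inhibitor, so that host microglia were not depleted by a drug. GFP-BM REPOP mice had the same irradiation and transplant and, 3.5 months later, the CSF1R inhibitor PLX3397 at 600 ppm in the diet for 14 days, which depletes microglia, followed by 6 months of recovery. The labels give no age. Cortex libraries numbered 3 for WT CON, 4 for GFP-BM CON and 4 for GFP-BM REPOP; there were 4 of each for hippocampus, and 4, 3 and 4 for thalamus. A mouse usually gave all 3 regions, and the comparisons within a region share control libraries: WT CON serves in 2 of them and so does GFP-BM CON.

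Libraries held 17085018 to 26010509 reads. Regions matched their labels in part: of 8 cortex markers, 6 were lower in WT CON hippocampus and 7 in WT CON thalamus than in WT CON cortex, and 6 of 8 thalamus markers were higher in WT CON thalamus than in cortex. The 8 striatum markers did not set the thalamus apart, with mean sums of 482, 486 and 527 FPKM in WT CON cortex, hippocampus and thalamus. The hippocampus was uneven, with a summed FPKM of 8 hippocampus markers from 53.1 to 299 in WT CON, against 73.0 to 77.5 in WT CON cortex, and of 8 choroid plexus markers from 35.5 to 6545. In GFP-BM REPOP hippocampus the hippocampus markers summed to 54.7 to 275 and the striatum markers to 112 to 1831. Choroid plexus markers summed to 92.5 to 293 there and to 50.4 to 6407 in GFP-BM CON. The part of dissection in the hippocampus comparisons was not tested. Libraries also differed in a GC measure, the median log2 level of the tenth of genes richest in GC minus that of the tenth poorest: it was 0.75 to 1.24 in WT CON cortex, 1.75 to 3.39 in WT CON hippocampus and 1.09 to 3.65 in WT CON thalamus, and 0.51 to 0.94 in GFP-BM REPOP thalamus. In GFP-BM CON it was 0.43 to 0.58 in the cortex and 0.45 to 0.83 in the thalamus, wholly below WT CON in both. WT CON hippocampus replicate 1, at 3.39, and WT CON thalamus replicate 2, at 3.65, were the highest of their groups in this measure and in all 10 genes. In such bulk tissue, more cells of a type and more RNA per cell cannot be told apart.

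The start sites of these genes carry different short motifs. The 6-letter E-box CACGTG is the core of the element that TFEB and its relatives, which switch on lysosomal genes, are known to bind, and GAGGAAGT is a motif of the ETS family to which the myeloid factor PU.1 belongs. In RefSeq promoters of GRCm38.p6 (300 bases, 250 before the start site), 8 of the 10 genes had 9 entries, and both strands were searched. CACGTG lay in 4 of the 9, against 7.15% of all 32851 promoters and 9.61% of those of tested genes. TCACGTGA, which contains it, lay in 2 of the 9, against 0.974% of all and 1.72% of those of tested genes. TCACGTGA with G directly before it and C directly after it lay in 0 of the 9, against 0.326% and 0.599%. GAGGAAGT lay in 2 of the 9, against 3.2% of all and 2.7% of those of tested genes. *Ctsc* and *Ctss* hold the ETS-type motif, and *Lamp1*, *Ctsa*, *Ctsd* and *Ctsl* hold the E-box. Whether a motif goes with a treatment difference was not tested. Windows with matches are printed 5′ to 3′ on the strand of the gene, with each match in capitals.
Lamp1: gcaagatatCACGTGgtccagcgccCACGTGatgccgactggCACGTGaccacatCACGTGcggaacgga
Ctsa: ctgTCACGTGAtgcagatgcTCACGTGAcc
Ctsd: gcccctcgcccgcgtcTCACGTGAcccgtt
Ctsl: gttagaagcCACGTGctgatctaaattcta
Ctsc: cactaactaACTTCCTCaggccacctcgtg
Ctss: gaaatgaaagttcACTTCCTCattgtggat
The *Lamp1* window (chr8:13159091-13159160, plus strand) is the 70 bases before the start site and holds 4 E-boxes. The *Ctsa* window (chr2:164833757-164833786, plus strand) spans the start site of the downstream RefSeq entry and holds 2, the *Ctsd* window (chr7:142387913-142387942, minus strand) holds 1 and the *Ctsl* window (chr13:64370736-64370765, minus strand) holds 1. In *Ctsc* (chr7:88277925-88277954, plus strand) and *Ctss* (chr3:95526771-95526800, plus strand) the capitals read ACTTCCTC, so that GAGGAAGT is on the opposite strand. *Ctsz* and *Cd68* had a promoter entry in which none of these letters were found. A match describes letters in a window and is not a bound site.

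The genes spanned a wide range of expression, and their order was much the same in each region. In WT CON cortex, where replicates were closest, *Ctsd*, the main aspartic protease of the lysosome, stood highest at 168 ± 6.1 FPKM (SD, n = 3), and the next, *Lamp1* (132 FPKM) and *Ctsb* (128 FPKM), had overlapping libraries. *Ctss* (40.0 FPKM), *Ctsl* (35.5 FPKM), *Ctsz* (27.9 FPKM) and *Ctsa* (24.4 FPKM) followed, each separated from its neighbours, and *Cd68* (7.28 FPKM), *Ctsh* (5.37 FPKM) and *Ctsc* (2.14 FPKM) were lowest, also separated. In WT CON hippocampus and thalamus *Ctsd*, *Lamp1* and *Ctsb* led and *Ctsc* was last, and most neighbours in the order overlapped. Among all genes tested, the median level of *Ctsd* lay at the 98.5 percentile and that of *Ctsc* at the 27.4 percentile. Over the 34 libraries *Ctsc* varied most, from 1.55 to 7.83 FPKM (88 to 416 reads), a ratio of 5.06, while the other 9 genes varied by ratios of 1.76 to 2.81.

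**Figure D1:**
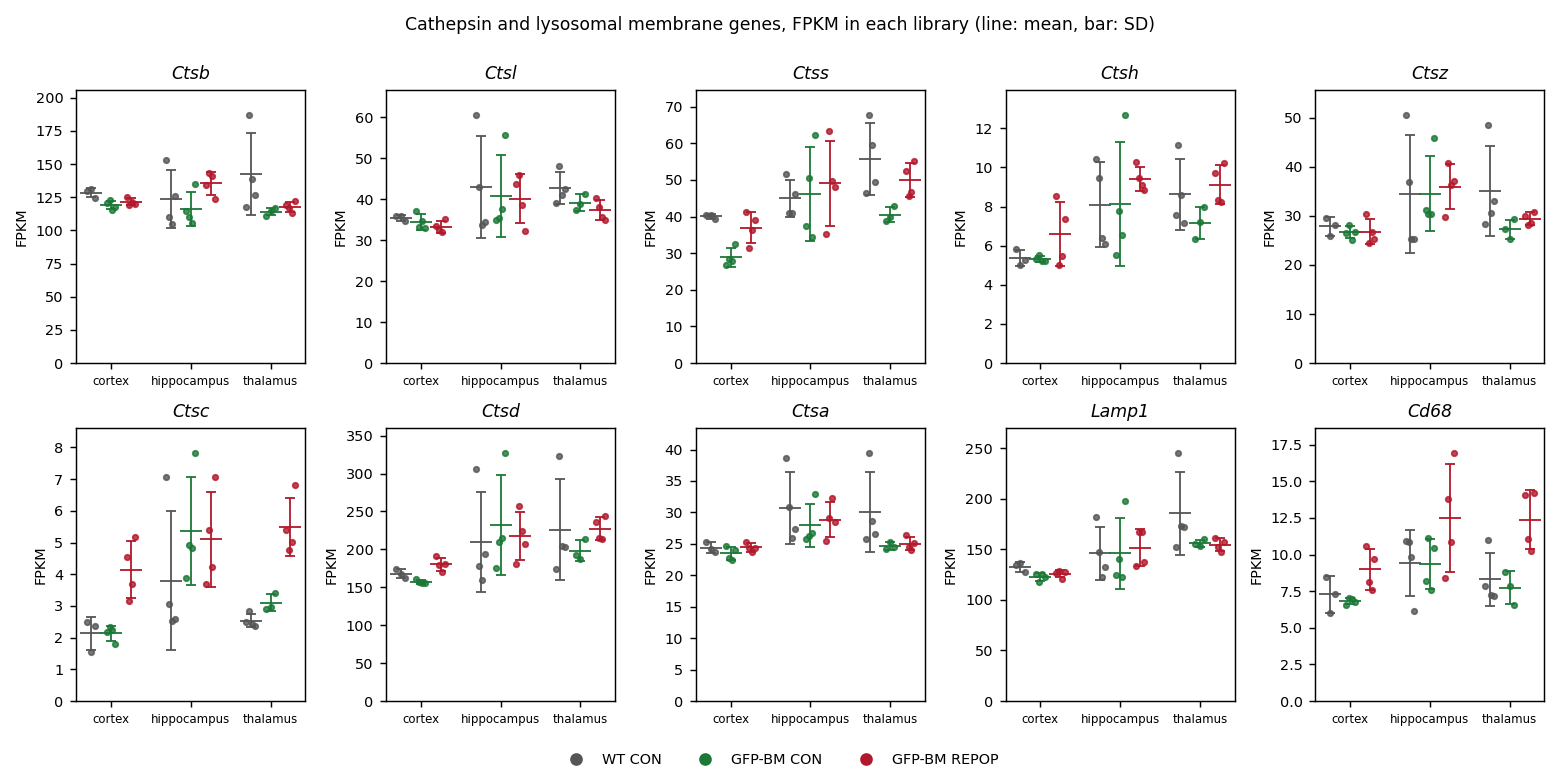
FPKM of the 10 genes in each of the 34 libraries, by region (x axis) and treatment (colour), with the mean (line) and SD (bar) of each group and every y axis starting at 0. *Ctsc* libraries of GFP-BM REPOP lie above those of both control groups in the cortex and thalamus, and those of no other gene do so in any region.

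*Ctsc* encodes dipeptidyl peptidase I, which trims the precursors of serine proteases in the granules of myeloid cells. It rose in GFP-BM REPOP thalamus against WT CON, and its levels in GFP-BM REPOP cortex also lay above both controls without passing the test. In the thalamus *Ctsc* stood at 2.5, 2.84, 2.44 and 2.36 FPKM in WT CON, at 2.90, 2.98 and 3.40 FPKM in GFP-BM CON and at 5.38, 4.75, 5.02 and 6.82 FPKM in GFP-BM REPOP. The 3 groups did not overlap there, with GFP-BM REPOP highest and WT CON lowest. The log2 fold change of GFP-BM REPOP against WT CON was 1.08 ± 0.13 (SE; a ratio of 2.11), with an adjusted p of 0.00979 by limma-trend, and *Ctsc* was the only 1 of the 10 genes called, where 0.836% of all genes were called, 0.755% were called higher, 25.0% had an unadjusted p under 0.05 (3 of the 10) and 11.9% lay wholly above WT CON (1 of the 10). The call held in 11 of 11 fits that left out a library, with adjusted p from 0.0052 to 0.0472. It was lost, at a similar or smaller fold, after quantile normalization (log2 0.83, adjusted p = 0.0504), with only the 2 groups in the fit (1.08, 0.0573) and with a replicate block (1.08, 0.108), and after a correction for GC content and length the fold fell to 0.35 (0.491). The *Ctsc* transcript is the poorest in GC of the 10, at 41.1%, and the GC measures of these 2 groups did not overlap.

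Against GFP-BM CON the difference of *Ctsc* in the thalamus was 0.80 on the log2 scale (95% interval 0.48 to 1.12, adjusted p = 0.521), and that of GFP-BM CON against WT CON was 0.28 (−0.04 to 0.60, adjusted p = 0.275); neither passed. In the cortex *Ctsc* stood at 2.5, 1.55 and 2.38 FPKM in WT CON, at 2.19, 2.32, 2.23 and 1.79 FPKM in GFP-BM CON and at 4.56, 3.16, 3.69 and 5.18 FPKM in GFP-BM REPOP. The control groups overlapped and every GFP-BM REPOP library lay above them. The log2 differences there were 0.93 against WT CON (95% interval 0.50 to 1.35, adjusted p = 0.0574) and 0.91 against GFP-BM CON (0.52 to 1.30, adjusted p = 0.152), and 0.02 between the controls (−0.40 to 0.44). Against WT CON the adjusted p ran from 0.0491 to 0.367 over 11 alternatives and passed in 1, quantile normalization, and of 11 fits that left out a library it passed in 1 (0.0363), without GFP-BM REPOP replicate 2, and against GFP-BM CON it was 0.037 after the correction for GC content and length. The GC measures of the cortex groups were closer, at 0.75 to 1.24 in WT CON, 0.43 to 0.58 in GFP-BM CON and 0.41 to 0.99 in GFP-BM REPOP. GFP-BM REPOP overlapped both controls, and GFP-BM CON lay wholly below WT CON.

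Markers of macrophages from the marrow were also highest in GFP-BM REPOP cortex and thalamus, but did not follow *Ctsc* throughout. Their list was chosen with earlier results of these data known. It includes *Apobec1* and *Lyz2*, which the study reports as raised in monocyte-engrafted mice. Against WT CON, of the 7 tested of 8 such markers, GFP-BM REPOP had 7 higher in the cortex and 7 in the thalamus, and their summed FPKM was 8.33 to 10.3 in WT CON, 12.8 to 21.8 in GFP-BM CON and 61.9 to 101 in GFP-BM REPOP cortex, and 15.3 to 31.6, 38.8 to 52.1 and 112 to 194 in the thalamus. None of the 8 was at 0 in a library of the cortex or thalamus. In the cortex their sum in GFP-BM CON lay wholly above WT CON, while *Ctsc* overlapped between these groups. In the hippocampus the sum was 10.5 to 24.45 in WT CON, 15.4 to 74.6 in GFP-BM CON and 50.4 to 141 in GFP-BM REPOP. The mean of *Ctsc* there was 3.80, 5.36 and 5.10 FPKM, in the same order. Of 10 homeostatic microglia markers, 3 were called lower in GFP-BM REPOP cortex against WT CON and 1 in the thalamus. Of all genes, 0.734% and 0.836% were called there in either direction. The summed FPKM of the 10 was 90.1 to 109 in WT CON and 68.5 to 88.0 in GFP-BM REPOP cortex. In the thalamus it was 203 to 309 and 154 to 214. The summed FPKM of 12 pan-myeloid markers changed less, from 168 to 182 in WT CON to 155 to 194 in GFP-BM REPOP cortex and from 196 to 336 to 205 to 234 in the thalamus. The part of these cells in the level of *Ctsc* was not tested.

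*Cd68* also had its highest group means in GFP-BM REPOP in every region, with smaller differences than *Ctsc* in the cortex and thalamus, and was not called. In the thalamus it stood at 7.83, 11.0, 7.23 and 7.16 FPKM in WT CON, at 8.82, 7.87 and 6.55 FPKM in GFP-BM CON and at 14.0, 11.1, 10.2 and 14.2 FPKM in GFP-BM REPOP. Every GFP-BM REPOP library lay above GFP-BM CON, and only WT CON replicate 2, the library with the highest GC measure, reached into their range. The log2 difference was 0.58 against WT CON (95% interval 0.20 to 0.95, adjusted p = 0.102) and 0.67 against GFP-BM CON (0.26 to 1.07, adjusted p = 0.9999). Against WT CON 2 of 11 alternatives passed, with all 9 groups in a single fit (adjusted p = 0.0469) and, at a log2 difference of 0.79, with GC content and length corrected for (0.0337). The highest adjusted p of the 11 was 0.190. In the cortex *Cd68* stood at 8.50, 6.03 and 7.29 FPKM in WT CON, at 6.53 to 7.06 FPKM in GFP-BM CON and at 10.6, 8.09, 7.56 and 9.72 FPKM in GFP-BM REPOP, which overlapped WT CON but not GFP-BM CON. The log2 differences of GFP-BM REPOP there were 0.30 (0.02 to 0.58, adjusted p = 0.317) and 0.38 (0.12 to 0.64, adjusted p = 0.785).

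*Ctss*, a cysteine protease of antigen-presenting cells that stays active at neutral pH and trims the invariant chain of MHC class II, was lower in GFP-BM CON than in the other groups in the cortex and thalamus, short of the threshold. In the cortex it stood at 40.5, 40.4 and 39.2 FPKM in WT CON, at 26.7, 28.5, 27.9 and 32.5 FPKM in GFP-BM CON and at 41.2, 31.3, 36.2 and 39.1 FPKM in GFP-BM REPOP. GFP-BM CON lay wholly below WT CON and overlapped GFP-BM REPOP in 1 library each. The log2 difference of GFP-BM CON against WT CON was −0.47 (95% interval −0.66 to −0.28; a ratio of 0.721) with an adjusted p of 0.0515. It passed in 5 of 11 alternatives outside those that left out a library: with median-ratio scaling (0.0442), quantile normalization (0.0392), only the 2 groups in the fit (0.0351), a GC and length correction (0.0453) and voom on recovered reads (0.0492). In the other 6 the adjusted p ran from 0.0505 to 1.0, which was with all 9 groups in a fit, and was 0.103 with a replicate block. Of the 11 fits that left out a library it passed in 2, those without GFP-BM REPOP replicate 1 (0.0205) or 2 (0.0327). GFP-BM REPOP against GFP-BM CON differed by 0.35 (0.17 to 0.53, adjusted p = 0.351, and 0.0383 without GFP-BM REPOP replicate 2), and GFP-BM REPOP against WT CON by −0.12 (−0.31 to 0.07).

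In the thalamus *Ctss* stood at 46.4, 67.7, 59.4 and 49.3 FPKM in WT CON, at 38.8, 39.9 and 42.9 FPKM in GFP-BM CON and at 52.5, 45.5, 46.6 and 55.2 FPKM in GFP-BM REPOP. GFP-BM CON again lay below both other groups, which overlapped. Its log2 difference from WT CON was −0.44 (95% interval −0.73 to −0.15, adjusted p = 0.129, and 0.0339 without WT CON replicate 1), and that of GFP-BM REPOP from GFP-BM CON was 0.30 (0.01 to 0.59, adjusted p = 0.9999). The summed pan-myeloid markers were also lowest in GFP-BM CON cortex, at 150 to 156 FPKM, and were 180 to 201 FPKM in its thalamus, and their part in the level of *Ctss* was not tested.

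*Ctsd* in the cortex and the aminopeptidase gene *Ctsh* in the thalamus lay above GFP-BM CON in every GFP-BM REPOP library, without passing the test. *Ctsd* in the cortex stood at 174, 168 and 162 FPKM in WT CON, at 160, 157, 156 and 156 FPKM in GFP-BM CON and at 191, 179, 171 and 180 FPKM in GFP-BM REPOP. GFP-BM CON lay below both other groups, and GFP-BM REPOP overlapped WT CON. The log2 difference of GFP-BM REPOP from GFP-BM CON was 0.20 (95% interval 0.11 to 0.28, adjusted p = 0.151), a ratio of 1.15. *Ctsh* in the thalamus stood at 6.33, 7.21 and 7.95 FPKM in GFP-BM CON and at 9.73, 8.31, 8.22 and 10.2 FPKM in GFP-BM REPOP, with no overlap, and at 7.55, 11.2, 8.59 and 7.17 FPKM in WT CON, which overlapped both. Its log2 difference between the transplanted groups was 0.34 (−0.01 to 0.70, adjusted p = 0.9999), and in the cortex, where *Ctsh* libraries overlapped, 0.28 (−0.03 to 0.58).

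The remaining 5 genes, the cysteine proteases *Ctsb*, *Ctsl* and *Ctsz*, the serine carboxypeptidase gene *Ctsa*, whose product shields lysosomal beta-galactosidase and neuraminidase, and *Lamp1*, were called in no treatment comparison. In the cortex their log2 differences lay between −0.11 and 0.06 in the 3 comparisons. *Ctsb* there stood at 115 to 123 FPKM in GFP-BM CON, below all WT CON libraries (log2 −0.11, 95% interval −0.18 to −0.03), and *Lamp1* at 117 to 125 FPKM, also below (−0.11, −0.20 to −0.03). In the thalamus their log2 differences from WT CON were −0.33 to −0.12 in GFP-BM CON and −0.25 to −0.19 in GFP-BM REPOP, and none passed; *Ctsl* in GFP-BM REPOP had an unadjusted p of 0.0453. After the correction for GC content and length *Ctsl* was at −0.80 in GFP-BM REPOP (adjusted p = 0.117) and −0.73 in GFP-BM CON thalamus (0.193), and at −0.61 in GFP-BM CON hippocampus (0.335), where it was otherwise −0.06. In each of these 5 the highest WT CON library was replicate 2, and *Ctsb* stood at 118, 187, 139 and 127 FPKM in WT CON thalamus, at 111, 114 and 117 FPKM in GFP-BM CON and at 119, 117, 113 and 122 FPKM in GFP-BM REPOP. Between the 2 transplanted groups the 5 differed in the thalamus by −0.07 to 0.11.

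**Figure D2:**
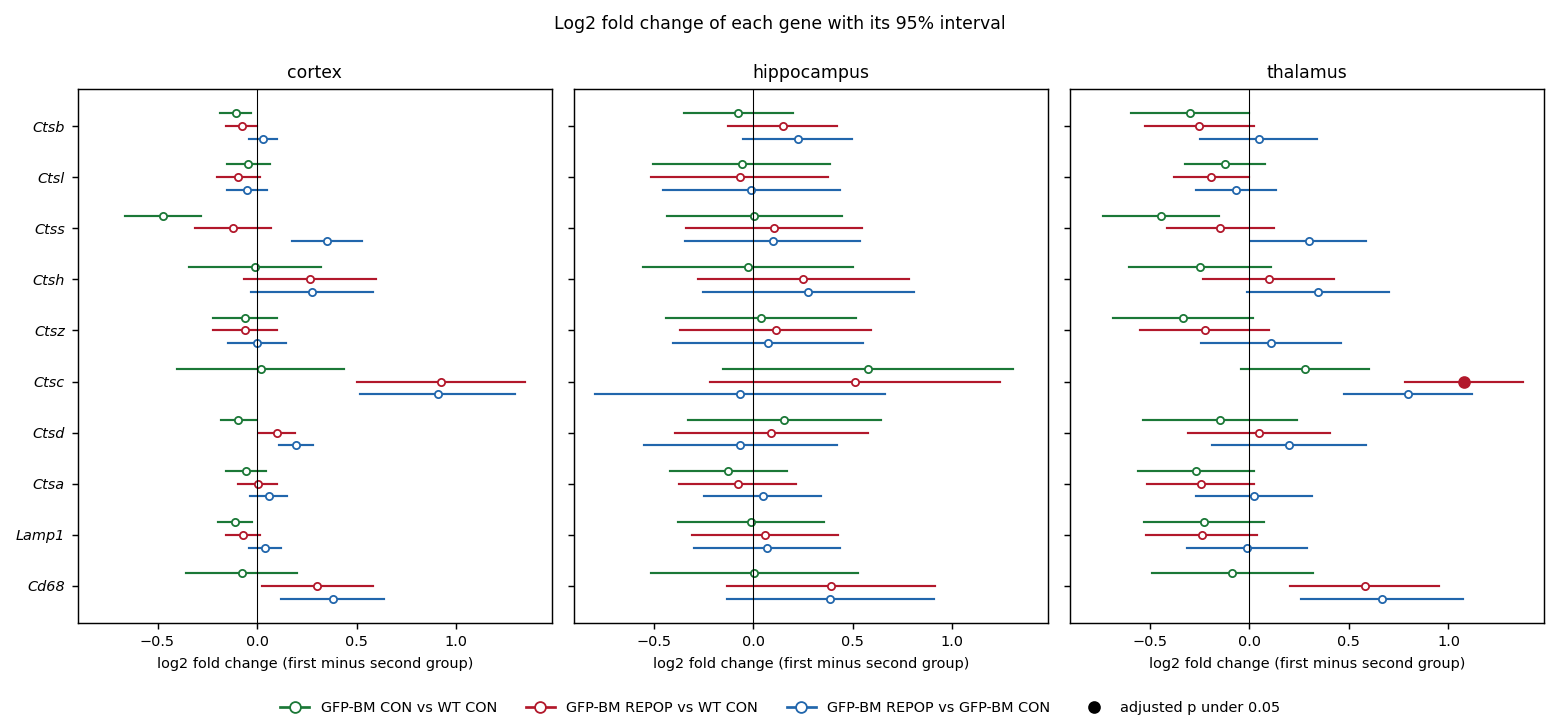
Log2 fold change of each gene (rows) in the 3 treatment comparisons (colours) and 3 regions (panels), with the 95% interval from limma-trend, and filled points for an adjusted p under 0.05. The only filled point is *Ctsc* in the thalamus of GFP-BM REPOP against WT CON (1.08), and the hippocampus intervals are the widest.

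Counted over the 10 genes, limma-trend called 0 when GFP-BM REPOP cortex was set against WT CON, where 0.734% of all genes were called. An unadjusted p under 0.05 was found for 4 (*Ctsb*, *Ctsc*, *Ctsd* and *Cd68*; also 4 by voom, which called 0) against 14.3% of all genes, and 1 (*Ctsc*) lay wholly above WT CON against 4.89%. GFP-BM CON cortex gave 0 calls against WT CON (1 by voom), where 0.32% of all genes were called, with 4 at an unadjusted p under 0.05 (4 by voom) against 16.0%. The same 4 genes, *Ctsb*, *Ctsd*, *Ctss* and *Lamp1*, lay wholly below WT CON against 4.43% of all. GFP-BM CON thalamus gave 0 calls against WT CON (0 by voom), as did all genes (0.0%), with 2 at an unadjusted p under 0.05 (1 by voom) against 20.7%, 3 wholly below (*Ctsa*, *Ctsb* and *Ctss*) against 8.43% and 1 wholly above (*Ctsc*) against 14.6%. In the cortex and thalamus the GC measure of GFP-BM CON also lay wholly below that of WT CON. Between the transplanted groups limma-trend and voom each called 0 in GFP-BM REPOP cortex against GFP-BM CON, where 0.0476% of all genes were called, with 4 at an unadjusted p under 0.05 (4 by voom) against 4.27% and 3 wholly above (*Ctsc*, *Ctsd* and *Cd68*) against 1.41%. In the thalamus of these groups each called 0, against 0.0% of all genes, with 3 at an unadjusted p under 0.05 (2 by voom) against 0.945% and 5 wholly above (*Ctsc*, *Ctsd*, *Ctsh*, *Ctss* and *Cd68*) against 2.32%. The median log2 fold change of the 10 genes between the transplanted groups was 0.13 in the cortex and 0.15 in the thalamus, where that of all tested genes was −0.01 in both.

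In the hippocampus 0 of the 10 genes were called in the 3 comparisons, and 0 had an unadjusted p under 0.05 by limma-trend or voom. Of all genes, 0.0136% were called there for GFP-BM REPOP and 0.0% for GFP-BM CON, each against WT CON, and 0.0272% between the transplanted groups, with 9.67%, 23.9% and 11.7% at an unadjusted p under 0.05. Replicates spread more there, with a median residual SD over all genes of 0.292 on the log2 scale, against 0.118 in the cortex and 0.225 in the thalamus. *Ctsc* stood at 7.06, 3.05, 2.51 and 2.57 FPKM in WT CON, at 3.87, 4.92, 4.82 and 7.83 FPKM in GFP-BM CON and at 3.69, 5.41, 4.23 and 7.08 FPKM in GFP-BM REPOP. Apart from WT CON replicate 1, every WT CON library lay below both transplanted groups. The interval of GFP-BM REPOP against WT CON ran from −0.22 to 1.24 around 0.51, and that against GFP-BM CON from −0.79 to 0.66 around −0.07. *Cd68* stood at 10.9, 10.8, 9.81 and 6.16 FPKM in WT CON and at 8.39, 13.8, 10.9 and 16.9 FPKM in GFP-BM REPOP, a log2 difference of 0.39 (−0.13 to 0.91). For the other 8 genes the log2 differences of the 3 comparisons lay between −0.12 and 0.28.

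The tests of whether a treatment difference itself differed between regions called 0 of the 10 genes in all 9 contrasts. An unadjusted p under 0.05 was found for 4 values, and the 5 values with the smallest p were *Ctsc* in GFP-BM REPOP against GFP-BM CON, hippocampus minus cortex (−0.97, 95% interval −1.71 to −0.23, adjusted p = 0.381) and thalamus minus hippocampus (0.86, 0.09 to 1.63, adjusted p = 0.586), *Ctsb* in GFP-BM REPOP against WT CON, thalamus minus hippocampus (−0.40, adjusted p = 0.408), and *Ctss* in GFP-BM CON against WT CON, hippocampus minus cortex (0.48, adjusted p = 0.495) and thalamus minus hippocampus (−0.44, adjusted p = 0.9999). Of all genes, 0.034% were called in the contrasts of GFP-BM REPOP against WT CON for hippocampus minus cortex and for thalamus minus hippocampus, and between 0.0% and 0.177% in all 9. In the contrasts of the 4 values, in the order given, 8.52%, 7.64%, 9.99% and 10.1% of all genes had an unadjusted p under 0.05. The call of *Ctsc* in the thalamus is therefore not shown to be particular to that region.

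Between regions of untreated mice, 3 of the 10 genes were called in each comparison with the cortex, all of them higher than in the cortex. The share called was no larger than among all genes. In WT CON hippocampus against cortex, 3 were higher, *Ctsa* (log2 0.32, adjusted p = 0.0417), *Ctsc* (0.70, adjusted p = 0.0461) and *Ctsh* (0.55, adjusted p = 0.0471), and 0 lower, against 36.9% of all genes called and 15.7% called higher; 3 had an unadjusted p under 0.05 against 47.5%, and 4 lay wholly above the cortex against 19.4%. In the thalamus against cortex, 3 were higher, *Ctsh* (0.66, adjusted p = 0.026), *Ctss* (0.46, adjusted p = 0.0423) and *Lamp1* (0.46, adjusted p = 0.0181), against 30.0% and 13.0% of all; 5 had an unadjusted p under 0.05 against 44.1%, and 5 lay wholly above the cortex against 18.5%. In the thalamus against hippocampus 0 were called (1, *Lamp1*, at an unadjusted p under 0.05 against 31.5% of all), against 17.7% of all. *Lamp1* stood at 134, 136 and 127 FPKM in the cortex and at 152, 245, 173 and 172 FPKM in the thalamus, with no overlap. The counts moved between 0 and 4 and between 0 and 5 when single libraries were left out: in the hippocampus against cortex, *Ctsa* was called in 29, *Ctsc* in 16 and *Ctsh* in 15 of 34 such fits, and in the thalamus against cortex *Ctsh* in 31, *Ctss* in 29 and *Lamp1* in 32. Without WT CON hippocampus replicate 1 no call of the 3 was left: *Ctsa* was at 0.20 (adjusted p = 0.208), *Ctsc* at 0.35 (0.273) and *Ctsh* at 0.42 (0.171). Without WT CON thalamus replicate 2, likewise, *Ctsh* was at 0.52 (0.106), *Ctss* at 0.36 (0.156) and *Lamp1* at 0.32 (0.092). *Ctsc* in the hippocampus was also not called with a pseudocount of 1 (0.54, 0.0593). After the correction for GC content and length *Ctsa* in the hippocampus was at 0.04 (adjusted p = 0.724) and *Ctsh* at 0.35 (0.12), neither called, while *Ctsc* was called at 1.53 (0.00184) and *Ctsl* at 1.02 (0.0114).

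Relative to pan-myeloid markers, every GFP-BM REPOP library lay above both control groups for *Ctsc* in the cortex and thalamus, as in FPKM. The same held for *Cd68* in the thalamus, where WT CON replicate 2 overlapped GFP-BM REPOP in FPKM. The log2 level of *Ctsc* minus the mean log2 level of the 12 pan-myeloid markers, which include no member of the group, was −2.24 to −1.74 in WT CON cortex, −1.98 to −1.61 in GFP-BM CON and −1.20 to −0.73 in GFP-BM REPOP. In the thalamus it was −2.12 to −1.85, −1.49 to −1.37 and −0.98 to −0.63, with no overlap between the 3 groups. For *Cd68* it was −0.50 to −0.20 in WT CON thalamus, −0.45 to 0.08 in GFP-BM CON and 0.11 to 0.49 in GFP-BM REPOP, which lay above both. *Ctss* on this scale was 2.22 to 2.38 in WT CON cortex, 1.88 to 2.13 in GFP-BM CON and 2.07 to 2.20 in GFP-BM REPOP, so that GFP-BM REPOP and GFP-BM CON both lay below WT CON. These are descriptions of the libraries, without a test, and the markers are RNA levels and not counts of cells. This scale was not corrected for GC content. In the thalamus the GC measures of WT CON (1.09 to 3.65) and GFP-BM REPOP (0.51 to 0.94) did not overlap.

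**Figure D3:**
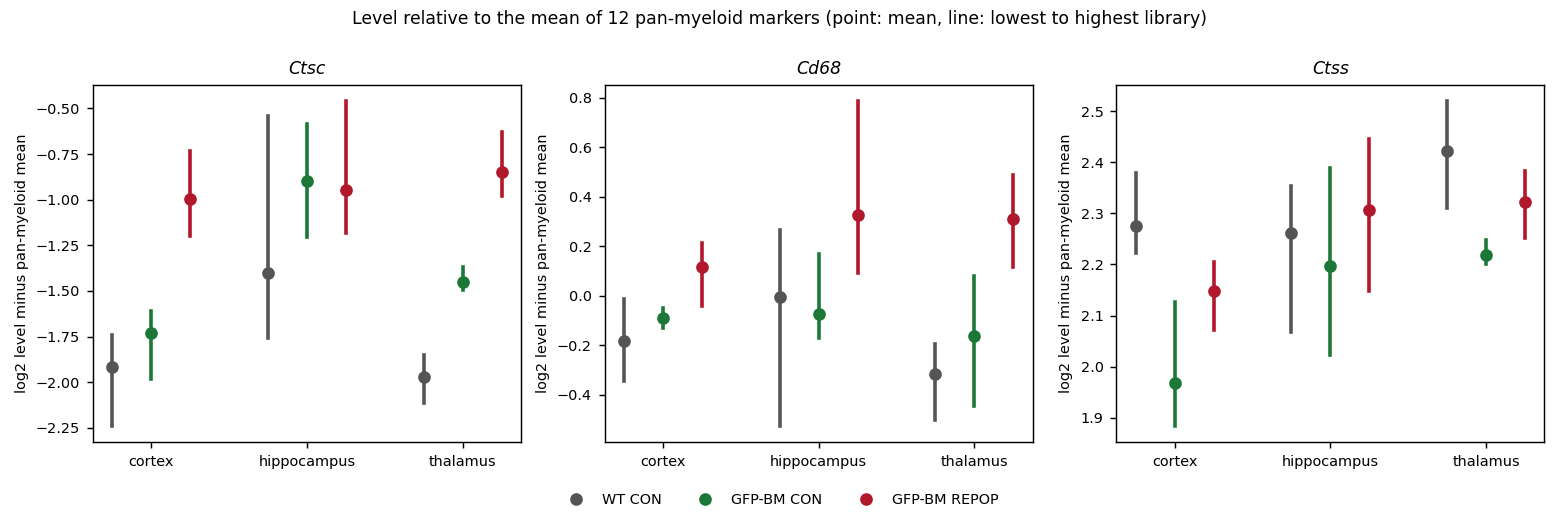
Log2 level of *Ctsc*, *Cd68* and *Ctss* minus the mean log2 level of 12 pan-myeloid markers, by region and treatment, with the mean (point) and the lowest to highest library (line). *Ctsc* in GFP-BM REPOP lies above WT CON by about 1 log2 unit in the cortex and thalamus (−0.99 against −1.92 and −0.85 against −1.97).

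Across libraries the 10 genes fell on a scale from those that rose with the GC measure to those that did not rise with it. With the mean of each region subtracted, the Pearson correlation with the GC measure over 34 libraries was 0.832 for *Ctsa*, 0.82 for *Ctsb* and 0.721 for *Lamp1*, between 0.402 and 0.613 for *Ctsz*, *Ctsl*, *Ctss*, *Ctsd* and *Ctsh*, and −0.04 and −0.233 for *Cd68* and *Ctsc*. The Spearman correlation with the GC measure was lower for each gene, at 0.65 for *Ctsa*, 0.694 for *Ctsb* and 0.558 for *Lamp1*. It was 0.114 for *Ctsd*, and more negative than the Pearson value for *Cd68* (−0.142) and *Ctsc* (−0.349). The Pearson correlation with the pan-myeloid mean was 0.89 for *Ctss*, and from 0.459 (*Ctsl*) to 0.774 (*Ctsd*) for the rest. Among the genes themselves it was highest between *Ctsa* and *Lamp1* (0.893), *Ctsz* and *Lamp1* (0.862) and *Ctsa* and *Ctsz* (0.852), and reached 0.723 between *Ctsc* and *Cd68*, while *Ctsc* had 0.066 with *Ctsb* and 0.123 with *Ctsa*. These points share mice, regions, treatments and library composition, and are descriptions. Differences between treatments were left in.

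**Figure D4:**
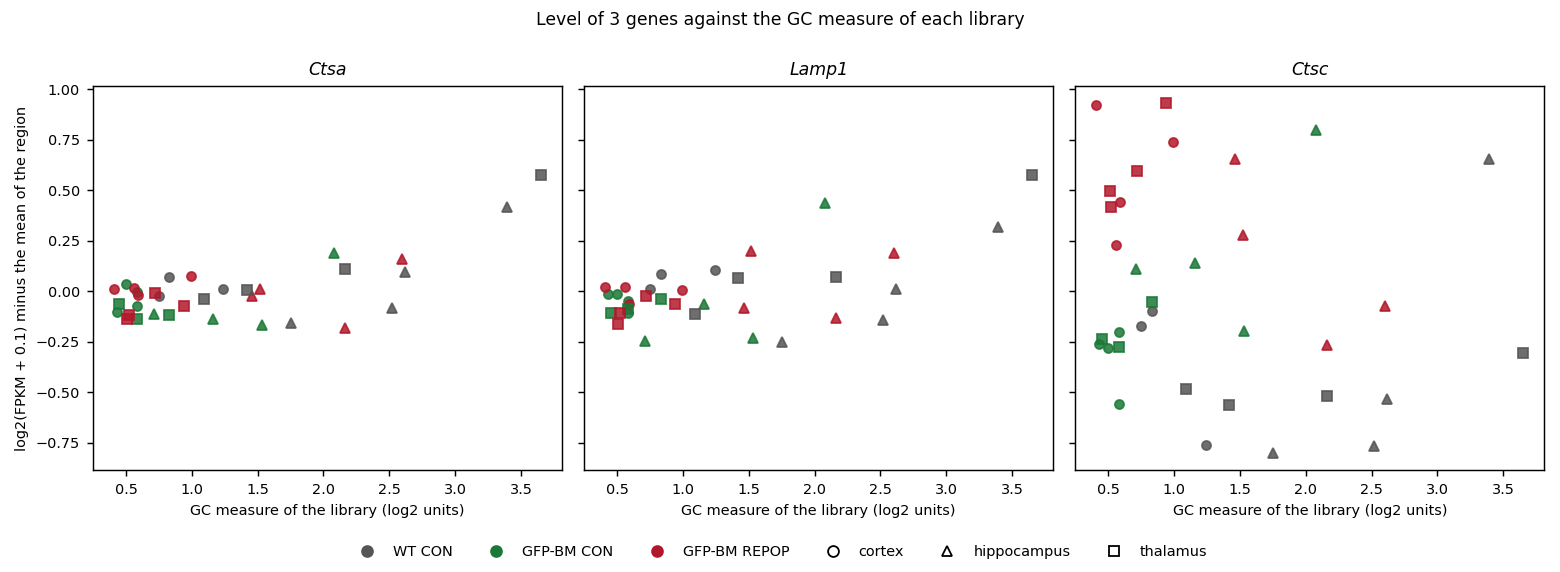
Log2(FPKM + 0.1) of *Ctsa*, *Lamp1* and *Ctsc* with the mean of the region subtracted, against the GC measure of each library (log2 units), by treatment (colour) and region (shape). *Ctsa* and *Lamp1* rise with the GC measure up to WT CON thalamus replicate 2 at 3.65, and *Ctsc* does not (Pearson r = −0.233).

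**Figure D5:**
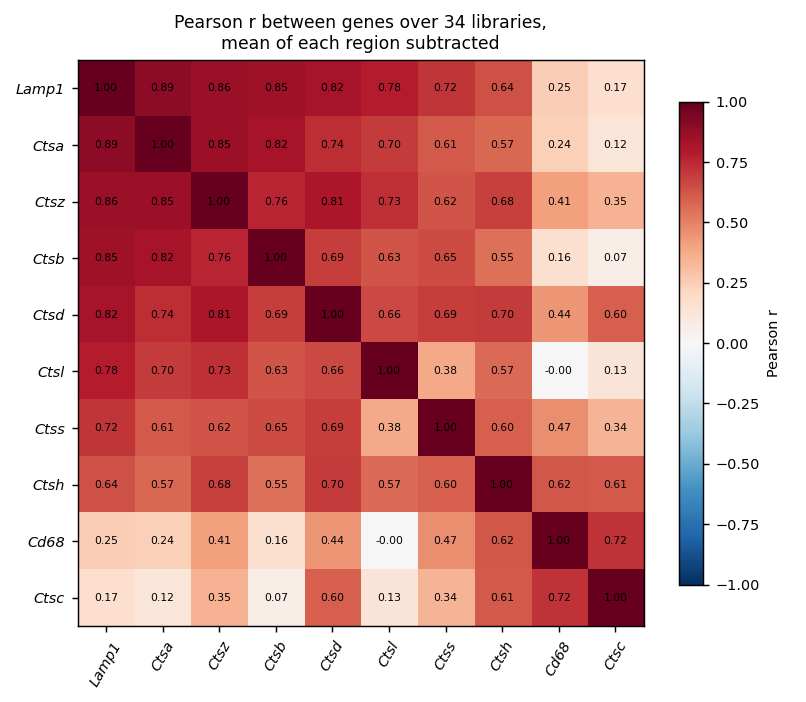
Pearson correlation between the 10 genes over 34 libraries with the mean of each region subtracted. *Lamp1*, *Ctsa*, *Ctsz*, *Ctsb* and *Ctsd* form a block of high values (0.893 between *Ctsa* and *Lamp1*), and *Ctsc* is near 0 with *Ctsb* (0.066).

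The genes outside the group whose levels were most like each member, by Pearson correlation on the same centred scale over 34 libraries, differed accordingly. The means of the treatments were not subtracted, so a treatment difference that 2 genes share raises their correlation. For *Ctsc* they were *Apobec1* (0.846), an RNA-editing enzyme gene and one of the markers of macrophages from the marrow, *Lyz2* (0.837), the macrophage lysozyme gene and another of these markers, and *Cd59a* (0.834). For *Ctss* they were *C1qa* (0.857), *C1qb* (0.855), which encode chains of complement C1q and are pan-myeloid markers here, and *Trem2* (0.845). For *Cd68* they were *Fcrls* (0.849), *Adgre1* (0.825), which encodes F4/80, and *C3ar1* (0.817), and for *Ctsh* *Tmem176a* (0.837), *Tmem176b* (0.831) and *Slc11a1* (0.811), a metal transporter gene of phagosomes. *Lamp1* had *Lgmn* (0.944), the lysosomal legumain gene, *Tsc22d4* (0.944) and *Psat1* (0.94). *Ctsd* had *Tmem255b* (0.874), *Fuca1* (0.855) and *Npc2* (0.847), the last 2 of which encode lysosomal proteins, and *Ctsz* had *Npc2* (0.87), *2210016F16Rik* (0.869) and *Plin3* (0.862). *Ctsa* had *P4hb* (0.914), *Lgmn* (0.9) and *Rhoa* (0.898), *Ctsb* had *Pink1* (0.915), *Lrrc59* (0.914) and *Paqr4* (0.914), and *Ctsl* had *Gng5* (0.91), *Odc1* (0.892) and *1110032A03Rik* (0.892).

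Of 35 other lysosomal hydrolases and activators, 0 were called in the hippocampus, in the thalamus or between the transplanted groups. At an unadjusted p under 0.05 by limma-trend there were 4 in the hippocampus and 6 in the thalamus of GFP-BM REPOP against WT CON. Of all genes, 9.67% and 25.0% were under 0.05 there.

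Calls were 0 in all 9 treatment comparisons for 3 other cathepsins tested, 4 cathepsin inhibitors, 19 other membrane proteins, 19 subunits of the proton pump that acidifies the lysosome, and 8 sorting receptors and transcription factors of lysosomal genes. At an unadjusted p under 0.05 by limma-trend there were, in that order, 0, 3, 2, 1 and 1 in GFP-BM REPOP against WT CON cortex and 1, 1, 5, 7 and 2 in the thalamus. Of all genes, 14.3% in the cortex and 25.0% in the thalamus were under 0.05. Among the inhibitors, *Cst3*, which encodes the secreted cystatin C, stood at 523 FPKM in GFP-BM REPOP and 670 FPKM in WT CON cortex (log2 −0.36, adjusted p = 0.058), without overlap. Of the other cathepsins *Ctsk* stood at 1.94 against 2.49 FPKM in the thalamus of these groups (−0.34, adjusted p = 0.17), and of the sorting and transcription genes *Mitf*, a relative of TFEB, at 2.18 against 1.35 FPKM (0.77, adjusted p = 0.16). The median log2 fold change in GFP-BM REPOP against WT CON thalamus was −0.19 for the hydrolases, −0.19 for the membrane proteins and −0.22 for the proton pump, against −0.17 for the 10 genes and −0.05 for all tested genes.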

How the data were processed

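The authors used STAR for alignment of paired-end reads and featureCounts for counts by Entrez gene, and deposited a single table of FPKM values (called RPKM in their methods), made with edgeR and limma; per the labels the genome build was mm10, and no version is given there. The values were checked to be multiples of a step worth 1 read in each library: 100% came out whole, within 0.001 of a read, which gave the depth. Zeros were 0.32% of values. Groups, regions and the mouse came from the labels.

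Of 15053 genes with an FPKM of at least 1 in at least 3 libraries, 343 of other biotypes were left out and 14710 tested. Log2(FPKM + 0.1) was compared with limma 3.58.1 (trend, two-sided, R 4.3.3) in a fit per region with 3 groups, with a Benjamini-Hochberg adjusted p under 0.05 over all tested genes, and a fold change on this scale understates that of low genes. Regions were compared in a fit of 9 groups with the mouse as a random block. The fit was tested on simulated data. Alternatives were other pseudocounts, filters, scalings and sets of groups, a replicate block, a spline correction for GC content and length (values for 94.3% of tested genes, longest GENCODE M21 transcript), voom on recovered reads, and leaving out each library. Every gene of the group is named; of each other lysosomal list, genes past the threshold (up to the 4 largest changes) or, where there were none, from the 2 with the smallest p in a comparison. The genes of the group and all lists were chosen with earlier results of these data known. Promoters were from RefSeq. The result for a gene of the hydrolase list is not reported here.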

Additional observations from a re-analysis of the deposited data

Results flagged for a closer look

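In groups of 4 libraries, a library was singled out when its gap to the nearest other, divided by the range of the group, exceeded Dixon's 95% critical value of 0.829. This held in 5 of 70 groups of 4, where chance alone gives about 1 in 20. In GFP-BM CON hippocampus, replicate 4 stood at 32.98 FPKM for *Ctsa* (the others at 25.8 to 26.8), at 55.8 FPKM for *Ctsl* (34.8 to 37.6) and at 46.0 FPKM for *Ctsz* (30.3 to 31.3). That library had the highest GC measure of its group, 2.08, and the highest level of 9 of the 10 genes. In WT CON hippocampus, replicate 1 stood at 7.06 FPKM for *Ctsc* (2.51 to 3.05), and its GC measure was 3.39. In GFP-BM REPOP cortex, replicate 3 was low for *Lamp1* at 120.9 FPKM (127.0 to 128.1). The causes were not tested.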

How the results depend on the processing

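Outside the fits that left out a library, 1103 of the values for single genes stayed on their side of the threshold without a clear move. These kept their direction or, with a changed sign, lay within 1 SE of the main value. A further 17 changed sign by 1 SE or more, 13 newly passed and 7 no longer passed, and no called value changed sign. The count of the 10 genes called in GFP-BM REPOP against WT CON thalamus was 0 after quantile normalization, with only the 2 groups compared and with a replicate block, and 2 (*Ctsc* and *Cd68*) with all 9 groups in a fit; after the correction for GC content and length it was 1, *Cd68* in place of *Ctsc*. In GFP-BM CON against WT CON cortex it was 1 (*Ctss*) with median-ratio scaling, quantile normalization, only the 2 groups, a GC and length correction, and voom. In the cortex it was 1 (*Ctsc*) for GFP-BM REPOP against WT CON after quantile normalization and 1 (*Ctsc*) between the transplanted groups after the GC correction, and 1 (*Lamp1*) in WT CON thalamus against hippocampus with median-ratio scaling and after the GC correction. The causes were not tested.

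Leaving out a library gave 0 to 1 calls in each of the 3 treatment comparisons of the cortex and for GFP-BM CON against WT CON thalamus, and 1 to 1 in GFP-BM REPOP against WT CON thalamus. It gave 0 to 4 in WT CON hippocampus against cortex, 0 to 5 in thalamus against cortex (5 without thalamus replicate 1, and 0 without thalamus replicate 2 or cortex replicate 3) and 0 to 2 in thalamus against hippocampus. Same-numbered libraries of different treatments came from different mice, and their deviations correlated over 0.1 in 5 of 32 pairs (−0.433 to 0.49), so the numbers did not pair them; the replicate block changed the count in GFP-BM REPOP against WT CON thalamus only. Depth limits *Ctsc* and *Cd68* most, with 88 to 416 and 126 to 361 reads per library.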
